A study of Mus musculus with 6 samples.

Results

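The sites described here are the pSmad1/5 and Smad4 peaks that lie inside very long genes. A peak was taken when its summit lay inside a protein-coding RefSeq gene of more than 300 kb and more than 1 kb from both annotated ends of that gene. Of 21887 protein-coding genes, 557 were that long, with a median length of 451 kb, and 59 of them exceeded 1000 kb. Their interiors covered 315.5 Mb, which is 12.3% of the chromosomes as spanned by the peak lists. They held 11339 of the 123182 peaks of the 4 lists. These were 3329 of 35476 molar pSmad1/5 peaks, 4156 of 34561 molar Smad4 peaks, 1793 of 23389 limb pSmad1/5 peaks and 2061 of 29756 limb Smad4 peaks.

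The study precipitated chromatin from E13.5 embryos of wild-type CD1 mice, from molar tooth germ and from limb, with an antibody to pSmad1/5 or to Smad4. All embryos carried the wild-type genotype and no treatment is named. Each of the 4 combinations of tissue and antibody is 1 library, and each tissue also has 1 input library that was not analysed here. With no replicates, no difference has a replicate check and no p-value was computed. The 95% intervals below cover counting error over peaks only. Whether tissue was pooled from several embryos is not stated in the labels, and peak lists hold no expression from which the tissue labels could be checked.

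Smad1 and Smad5 are phosphorylated by receptors of bone morphogenetic proteins (BMP), move to the nucleus with the common partner Smad4 and bind short DNA motifs in promoters and enhancers. In tooth germ and limb these signals pattern the organ and direct mesenchymal condensation, cartilage and bone. Very long genes mostly encode cell adhesion molecules, ion channels, signalling scaffolds and some transcription regulators. Their introns can hold enhancers and additional promoters of the gene itself or of neighbours.

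The few bases of these sites that can be read directly are those where a peak falls on a RefSeq promoter inside the long gene. RefSeq promoter windows run from 250 bases before to 50 bases after a start. On GRCm38.p6, 891 such windows lay inside long genes, and 47 of them held a summit, 33 of these at an alternative start of the long gene itself. Only 5 windows held a summit of 2 lists, and they are printed below as the internal promoters found with more than one library. In the Pde10a and Robo2 windows the peaks of the 2 lists did not overlap each other. The start of Supt3 is added because it lies inside Runx2, the main osteoblast transcription factor, and carried a limb pSmad1/5 peak of score 5.12. Each is given 5′ to 3′ on the strand of its gene, in lower case, with the bases covered by any peak in capitals. The Gse1 window is chr8:120537159-120537458 on the plus strand, the Pde10a window chr17:8801495-8801794 on the plus strand and the Robo2 window chr16:74411776-74412075 on the minus strand. The Fgf14 window is chr14:124192497-124192796 on the minus strand, the Nckap5 window chr1:126492878-126493177 on the minus strand and the Supt3 window chr17:44776916-44777215 on the plus strand.
Gse1 internal promoter: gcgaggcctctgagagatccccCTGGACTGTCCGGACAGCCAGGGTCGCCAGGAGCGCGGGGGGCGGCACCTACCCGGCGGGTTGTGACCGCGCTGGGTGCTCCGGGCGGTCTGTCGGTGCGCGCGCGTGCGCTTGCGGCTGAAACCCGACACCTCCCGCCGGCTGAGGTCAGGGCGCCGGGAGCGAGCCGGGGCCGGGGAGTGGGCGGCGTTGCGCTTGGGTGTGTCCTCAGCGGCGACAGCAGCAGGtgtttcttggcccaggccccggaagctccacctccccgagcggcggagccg
Pde10a internal promoter: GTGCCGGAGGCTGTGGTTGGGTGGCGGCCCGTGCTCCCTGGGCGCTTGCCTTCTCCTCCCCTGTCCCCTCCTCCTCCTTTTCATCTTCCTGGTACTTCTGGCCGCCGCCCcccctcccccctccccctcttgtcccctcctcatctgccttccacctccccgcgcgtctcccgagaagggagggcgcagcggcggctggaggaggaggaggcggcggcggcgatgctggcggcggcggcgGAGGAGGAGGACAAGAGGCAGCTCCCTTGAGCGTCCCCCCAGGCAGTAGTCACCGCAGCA
Robo2 internal promoter: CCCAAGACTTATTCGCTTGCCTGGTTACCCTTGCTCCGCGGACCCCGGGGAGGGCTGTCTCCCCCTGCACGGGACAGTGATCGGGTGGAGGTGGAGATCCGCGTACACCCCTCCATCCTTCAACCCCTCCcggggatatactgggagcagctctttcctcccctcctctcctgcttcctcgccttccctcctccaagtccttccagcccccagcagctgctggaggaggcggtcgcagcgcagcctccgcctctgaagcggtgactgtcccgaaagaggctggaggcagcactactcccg
Fgf14 internal promoter: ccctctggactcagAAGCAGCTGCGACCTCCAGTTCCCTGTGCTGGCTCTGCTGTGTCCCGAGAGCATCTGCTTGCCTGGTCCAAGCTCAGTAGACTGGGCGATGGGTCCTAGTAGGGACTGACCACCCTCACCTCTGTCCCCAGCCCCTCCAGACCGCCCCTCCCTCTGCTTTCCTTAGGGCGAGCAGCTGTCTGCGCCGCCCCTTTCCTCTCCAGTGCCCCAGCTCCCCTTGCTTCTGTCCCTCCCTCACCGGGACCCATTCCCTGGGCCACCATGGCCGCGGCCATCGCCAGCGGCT
Nckap5 internal promoter: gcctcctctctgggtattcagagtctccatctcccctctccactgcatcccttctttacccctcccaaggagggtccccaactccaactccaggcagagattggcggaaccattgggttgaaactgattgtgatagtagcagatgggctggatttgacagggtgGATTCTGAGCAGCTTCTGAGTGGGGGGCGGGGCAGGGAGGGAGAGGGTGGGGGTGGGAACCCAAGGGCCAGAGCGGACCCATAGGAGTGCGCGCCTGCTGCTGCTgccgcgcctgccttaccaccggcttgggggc
Supt3 promoter inside Runx2: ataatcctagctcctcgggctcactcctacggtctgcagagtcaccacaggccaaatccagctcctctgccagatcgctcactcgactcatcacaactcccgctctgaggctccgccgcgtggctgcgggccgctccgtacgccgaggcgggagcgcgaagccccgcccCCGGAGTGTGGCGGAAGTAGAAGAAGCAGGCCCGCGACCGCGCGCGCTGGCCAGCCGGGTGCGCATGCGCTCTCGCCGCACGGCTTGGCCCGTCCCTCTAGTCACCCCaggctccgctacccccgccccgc

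The Gse1 window carried a molar pSmad1/5 peak of score 3.51 and a limb Smad4 peak of score 4.08, and peaks covered 227 of its bases. Gse1 encodes a subunit of histone deacetylase complexes. The Pde10a window, at a start of a cyclic nucleotide phosphodiesterase, carried limb peaks of both antibodies, with scores of 4.04 for pSmad1/5 and 3.62 for Smad4. At Robo2, a receptor of the Slit guidance cues, the molar pSmad1/5 score was 2.02 and the limb pSmad1/5 score 3.22. At Fgf14, which encodes an intracellular regulator of sodium channels, the molar pSmad1/5 score was 2.26 and the limb Smad4 score 3.10. The Nckap5 window was the only one of the 5 with both molar antibodies, with scores of 2.36 for pSmad1/5 and 3.32 for Smad4. The score is the authors' enrichment value per peak and serves here only to rank peaks within a list.

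Summits were more frequent on these internal promoter windows than on other bases of the long genes in 3 lists. Molar pSmad1/5 had 23 summits there, 8.58 times the density of the other interior bases (95% interval 5.44 to 12.9). Limb pSmad1/5 had 8 summits (5.53 times, 2.39 to 10.9) and limb Smad4 had 15 (9.05 times, 5.06 to 14.9). Molar Smad4 had 5, and its ratio of 1.49 had an interval that includes 1 (0.483 to 3.47). The windows with a summit were rich in G and C, at a median of 64.3%, against 47.3% over all windows inside long genes and 52.7% over all RefSeq promoter windows.

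Motifs were searched in those windows on both strands. The GC-rich Smad element GGCGCC was in 19.1% of the 47 windows with a summit, 5.27% of the 891 inside long genes and 11.9% of all 32851 promoter windows. GGAGCC or its complement GGCTCC was in 44.7%, 24.6% and 30.8% in the same order. The 4-base Smad box GTCT or AGAC was in 87.2%, 88.6% and 88.0%, so most windows of this length hold it. Its palindrome GTCTAGAC, which contains the box on both strands, was in 0 of the 47, in 0.337% and in 0.213%. These are letter matches in windows that also differ in base composition, and whether base composition accounts for the shares was not tested.

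Fewer peaks lay inside long genes than the rest of the same chromosomes would give, except for molar Smad4. The expected number was the interior length times the density of that list outside long genes on the same chromosome. Molar pSmad1/5 had 0.721 of the expected peaks (95% interval 0.697 to 0.746), limb pSmad1/5 0.593 (0.566 to 0.621) and limb Smad4 0.528 (0.506 to 0.552). Molar Smad4 had 1.003 (0.973 to 1.03). In peaks per Mb, the molar lists held 10.6 (pSmad1/5) and 13.2 (Smad4) inside long genes, and the limb lists 5.68 (pSmad1/5) and 6.53 (Smad4). Interiors of protein-coding genes of up to 300 kb held 18.7, 18.2, 15.2 and 19.8 peaks per Mb in that order, and sequence outside protein-coding genes held 9.74, 11.02, 5.35 and 6.12.

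The direction therefore depended on what long genes were set against. Against interiors of shorter genes on the same chromosomes, the molar ratios were 0.533 (pSmad1/5) and 0.698 (Smad4), and the limb ratios 0.377 (pSmad1/5) and 0.332 (Smad4). Against sequence outside protein-coding genes it was 1.08, 1.27, 1.06 and 1.06 in that order, and none of the 4 intervals reached 1. Long genes were thus close to the space between genes in the limb lists and in molar pSmad1/5, and molar Smad4 stood higher (95% interval 1.23 to 1.31). The lowest score listed differed between chromosomes in the molar lists, so the expected numbers were always formed within chromosomes.

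Peak density inside genes was highest in the shortest class and lowest in the longest class in each list. Relative to the sequence outside protein-coding genes, limb Smad4 had 5.20 times the density in genes of 2 to 30 kb, 3.14 times at 30 to 100 kb, 2.27 times at 100 to 300 kb, 1.59 times at 300 to 500 kb and 0.907 times at 500 to 1000 kb. In the 59 genes over 1000 kb it had 0.424 times that density. Limb pSmad1/5 ran in parallel, at 4.51 in the shortest class and 0.441 in the longest. Molar pSmad1/5 covered a narrower range, with 3.15 in the shortest class and 0.796 in the longest. The molar Smad4 ratio was 1.97 in the shortest class, 1.78 at 30 to 100 kb, 1.77 at 100 to 300 kb, 1.51 at 300 to 500 kb and 0.947 in the longest, the flattest of the 4 series. Of the genes next to it, Zfp423 (300.2 kb) held 6, 4, 15 and 16 peaks in the order molar pSmad1/5, molar Smad4, limb pSmad1/5 and limb Smad4, Kcnq3 just above it held 1, 5, 0 and 2, and Akap13 and Atp2b2 just under it held 3, 7, 0 and 0 and 11, 8, 16 and 23.

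**Figure D1:**
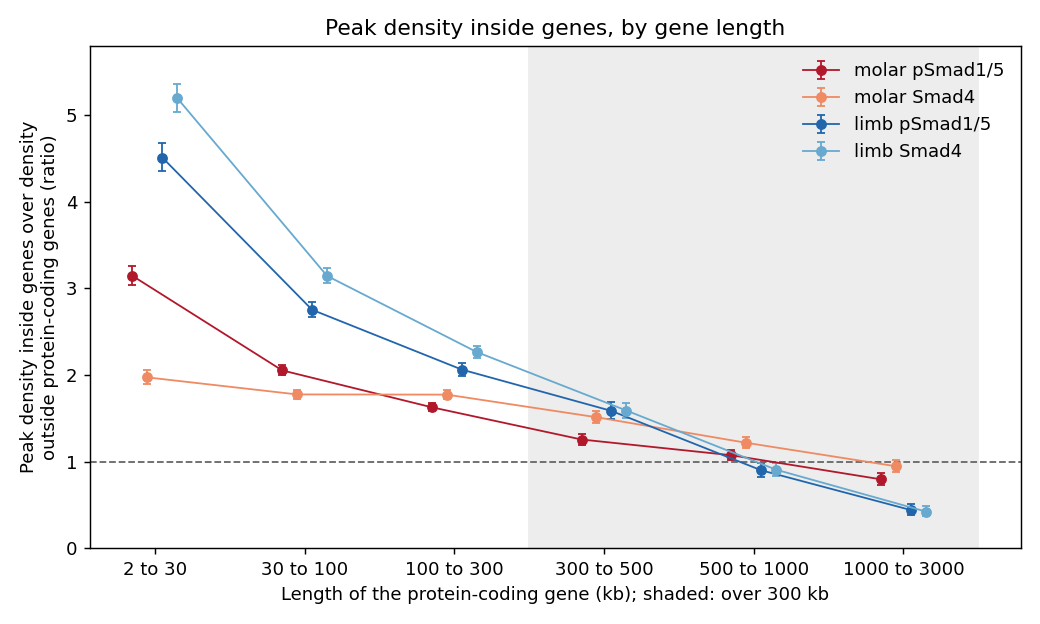
Peak density inside protein-coding genes by gene length class (horizontal axis, kb), as a ratio to the density outside protein-coding genes on the same chromosomes (vertical axis), with 95% Poisson intervals and 1 library per line. The limb lists start at 4.51 and 5.20 in the shortest genes and end at 0.441 and 0.424 in genes over 1000 kb, while molar Smad4 runs from 1.97 to 0.947.

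The deficit was spread over the chromosomes. The ratio of observed to expected peaks was under 1 on 19 of 20 chromosomes for molar pSmad1/5 (all but X), on 19 for limb pSmad1/5 (all but 18) and on all 20 for limb Smad4. For molar Smad4 it was under 1 on 12 of 20, and it ran from 0.665 on chromosome 19 to 1.36 on chromosome 17. In that list the lowest score, rounded down, was 2 on X, 3 on 13 chromosomes and 4 on 6. The ratio in long genes was 1.15, 1.006 and 0.842 over those 3 classes. In the molar pSmad1/5 list the ratio was 0.808 on the 8 chromosomes with a lowest score of 2 and 0.559 on the 12 with a lowest score of 3. With a score of at least 4 required everywhere, molar Smad4 had 0.876 of the expected peaks. The part that the lowest score plays in the molar ratios was not tested further.

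Single long genes were compared with windows of 448.8 kb outside long genes, the length of the median interior. A gene was called dense with at least 1.5 times, and sparse with at most 2/3 of, the expected peaks, and a gene or window was tested only with at least 5 expected peaks. Among long genes, 28 of 322 were dense in molar pSmad1/5 (8.7%), 95 of 370 in molar Smad4 (25.7%), 15 of 234 in limb pSmad1/5 (6.41%) and 19 of 334 in limb Smad4 (5.69%). Among the windows the dense share was 22.9%, 24.7%, 24.8% and 23.8% in that order. Sparse long genes made up 54.3%, 36.2%, 75.6% and 76.3%, against 41.1%, 39.7%, 56.3% and 56.8% of the windows. In molar Smad4 the long genes were thus close to the background in both directions, and in the other 3 lists they were dense less often and sparse more often than the windows, which are part of the sequence that sets this expectation. With the density outside protein-coding genes as the expectation, dense genes were 48 and sparse genes 64 of 241 in molar pSmad1/5, 105 and 84 of 289 in molar Smad4, 5 and 46 of 67 in limb pSmad1/5, and 9 and 69 of 94 in limb Smad4. The median tested gene had 0.627 of the expected molar pSmad1/5 peaks, 0.939 of the molar Smad4 peaks, 0.30 of the limb pSmad1/5 peaks and 0.283 of the limb Smad4 peaks. The median tested window had 0.806, 0.884, 0.507 and 0.437 in the same order. Over all 557 long genes, tested or not, the medians were 0.618, 0.876, 0.438 and 0.332.

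**Figure D2:**
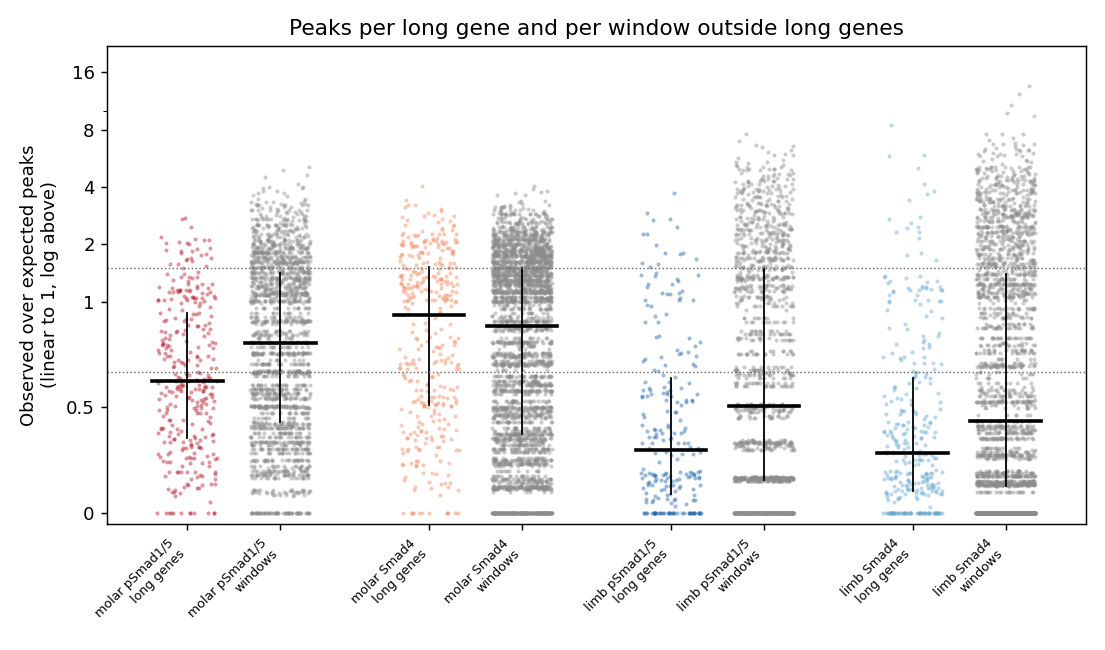
Observed over expected peaks (vertical axis, linear up to 1 and logarithmic above) for each long gene (coloured) and for each window outside long genes (grey) with at least 5 expected peaks, per list. Thick bars are medians, thin bars the middle 50%, and dotted lines mark 1.5 and 2/3. Long genes lie lower than the windows in every list but molar Smad4, where the median gene is at 0.939.

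Peaks were counted in all 4 lists for 339 of the 557 genes, and 7 genes had none in any list. These were Dnah7b, Ranbp17, Skint6, Zfp993, Pclo, Spock3 and Mei4. Dnah7b, Skint6 and Zfp993 belong to families with close copies next to each other, and the treatment of reads that map to several places is not stated in the labels. The ratio was at least 1.5 in all 4 lists for 22 long genes (3.95%), with no minimum on the expected number, and for 9.9% of the windows. It was at most 2/3 in all 4 lists for 144 long genes (25.9%) and for 29.1% of the windows. Across genes tested in both lists of a pair, Spearman's rank correlation between the ratios lay between 0.490 (molar and limb pSmad1/5, 160 genes) and 0.688 (limb pSmad1/5 and limb Smad4, 228 genes). These coefficients are descriptions, since the points are the same genes in both lists.

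Gse1, on chromosome 8 (120228501 to 120581383, 353 kb), was the densest of the long genes in limb. It held 48 limb pSmad1/5 peaks where 4.72 were expected and 43 limb Smad4 peaks where 5.07 were expected, which is 10.2 times (95% interval 7.49 to 13.48) and 8.49 times (6.14 to 11.4). In molar it held 25 pSmad1/5 peaks, 7.93 times the expected 3.15, and 3 Smad4 peaks, with 1.24 expected. Chromosome 8 is one of the 6 with a lowest molar Smad4 score of 4. Within Gse1, 14 limb Smad4 summits fell in one stretch of 50 kb and 12 limb pSmad1/5 summits in a stretch that overlaps it in part. The 14 summits were the highest number of one list in 50 kb of any long gene. Of the 119 peaks in Gse1, 12 overlapped a peak of another list, the highest number of any long gene.

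The next dense genes in limb Smad4 were Sorcs2, a sortilin-family receptor, with 36 peaks (5.89 times the expected number, 95% interval 4.13 to 8.16), and Mad1l1, a mitotic checkpoint gene, with 29 (5.79 times, 3.88 to 8.31). Sorcs2 also held 12 molar pSmad1/5, 4 molar Smad4 and 15 limb pSmad1/5 peaks, or 3.23, 3.21 and 2.90 times the expected numbers. Mad1l1 held 2 molar pSmad1/5, 3 molar Smad4 and 15 limb pSmad1/5 peaks. Its chromosome 5 held 9.81, 3.29 and 13.6 peaks per Mb outside long genes in that order, so these counts cannot be compared directly. In limb pSmad1/5 the highest ratios among tested genes belonged to Rbfox3, the neuronal splicing factor known as NeuN, with 23 peaks (3.70 times), Sorcs2 (2.90 times) and Arhgap26, a GTPase-activating protein, with 17 (2.70 times). Rbfox3 held 39 limb Smad4 peaks, 11 molar pSmad1/5 peaks and 2 molar Smad4 peaks. Its chromosome 11 held 22.4, 12.3 and 4.70 peaks per Mb outside long genes in that order.

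In molar pSmad1/5, the genes with the highest ratios among those with at least 5 expected peaks were as follows. Agap1, an Arf GTPase-activating protein, held 32 molar pSmad1/5 peaks (2.76 times, 1.89 to 3.89), Tiam1, an exchange factor for Rac, held 26 (2.71 times, 1.77 to 3.98) and Cacna1d, an L-type calcium channel, held 22 (2.46 times, 1.54 to 3.73). For molar Smad4 the highest ratios under the same limit were those of Prdm16, a zinc finger regulator needed for palate and brown fat, with 25 peaks (4.06 times, 2.63 to 6.0), Mid1, a ubiquitin ligase on microtubules, with 23 (3.43 times, 2.17 to 5.14) and Aff3, a nuclear protein of the transcription elongation machinery, with 26 (3.22 times, 2.10 to 4.71). Mid1, which spans the pseudoautosomal boundary of the mouse X chromosome, showed no limb Smad4 peak, with 2.36 expected. Prdm16 showed 22 limb Smad4 peaks and 8 molar pSmad1/5 peaks but 3 limb pSmad1/5 peaks, with 1.88 expected for the last.

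The genes with a ratio of at least 1.5 in all 4 lists included Zfp423, whose zinc finger protein binds Smads in the BMP response. It held 6 molar pSmad1/5, 4 molar Smad4, 15 limb pSmad1/5 and 16 limb Smad4 peaks, or 2.24, 3.78, 3.74 and 3.71 times the expected numbers. Camta1, a calmodulin-binding transcription activator of 802 kb, held 14, 28, 20 and 45 peaks in that order, and 11 of its limb Smad4 summits fell within 50 kb. Maml3, a coactivator of Notch signalling, held 20, 10, 12 and 8. The other 19 were Agap1, Kif26b, Cdh23, Spock1, Snx29, Tiam1, St6galnac3, Csmd2, Prdm16, Sorcs2, Ksr2, Tenm4, Kcnq1, Shank2, Cacna1a, Gse1, Dscaml1, Megf11 and Sh3kbp1.

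**Figure D3:**
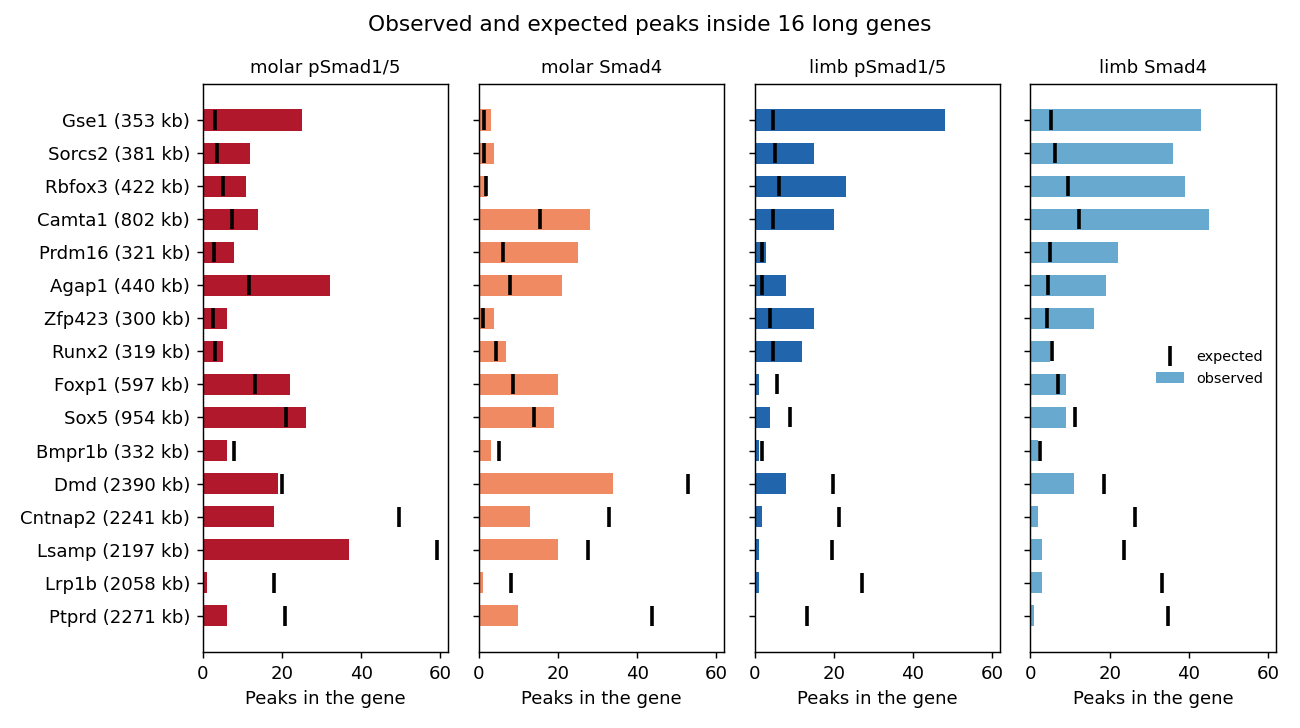
Observed peaks (bars) and expected peaks (black ticks) inside 16 long genes in each list, with gene lengths in kb on the vertical axis and peaks per gene on the horizontal axis. Gse1 holds 48 limb pSmad1/5 and 43 limb Smad4 peaks, while the 2271 kb Ptprd holds 0 and 1.

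The 5 longest genes held fewer peaks than expected in every list. The interval of the ratio included 1 for Dmd in molar pSmad1/5 (0.569 to 1.48) and in limb Smad4 (0.296 to 1.06). It also included 1 for Lsamp in molar Smad4 (0.442 to 1.12). The ratios of Ptprd, Cntnap2 and Lsamp were lower in both limb lists than in the molar lists. Dmd, which encodes dystrophin, spans 2390 kb of the X chromosome and held 19 molar pSmad1/5, 34 molar Smad4, 8 limb pSmad1/5 and 11 limb Smad4 peaks, or 0.945, 0.644, 0.402 and 0.594 of the expected numbers. Ptprd, a receptor tyrosine phosphatase, held 6, 10, 0 and 1. Cntnap2, a neurexin-family adhesion protein, held 18, 13, 2 and 2, and Lsamp, an adhesion molecule of limbic neurons, held 37, 20, 1 and 3. Lrp1b, an LDL receptor-related protein, held 1, 1, 1 and 3 peaks in 2058 kb. In limb the last 4 genes had between 0 and 3 peaks per list where between 13.4 and 34.7 were expected.

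Several long genes held no peak at all in a list. With the highest expected numbers these were Edil3 (10.3 expected) and Sgcz (10.3) for molar pSmad1/5, Grm5 (10.9) and Skint5 (10.01) for molar Smad4, Lrrc4c (17.3) and Cdh12 (14.8) for limb pSmad1/5, and Csmd1 (23.7) and Sgcd (22.8) for limb Smad4. Lrrc4c and Cdh12 are neuronal adhesion genes, Grm5 is a glutamate receptor, and Sgcz and Sgcd encode sarcoglycans of the dystrophin complex. The upper limit of the 95% interval was 0.156 of the limb Smad4 expectation for Csmd1 and 0.213 of the limb pSmad1/5 expectation for Lrrc4c. Altogether 55 long genes had no molar pSmad1/5 peak, 57 no molar Smad4 peak, 126 no limb pSmad1/5 peak and 119 no limb Smad4 peak.

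The peak density of a long gene went with the gene density around it. Long genes were ranked by the number of other protein-coding genes per Mb in the gene and 500 kb on either side, and split into 3 classes. In the gene-rich class of 186 genes (median 7.23 genes per Mb) the ratio of observed to expected peaks was 0.984 (pSmad1/5) and 1.34 (Smad4) in molar and 1.18 (pSmad1/5) and 1.07 (Smad4) in limb. In the gene-poor class of 186 (median 1.22 genes per Mb) it was 0.562, 0.716, 0.278 and 0.226 in the same order. The genes of the gene-rich class were also shorter, with a median of 398 kb against 556 kb. Across tested genes, Spearman's rank correlation of the ratio with gene density was 0.379, 0.425, 0.476 and 0.439 in the order molar pSmad1/5, molar Smad4, limb pSmad1/5 and limb Smad4, and with gene length it was -0.237, -0.191, -0.231 and -0.250. Length and gene density were not separated, and base composition was not measured.

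Long genes grouped by function differed in peak density. Transcription regulators (42 long genes) had 0.996 of the expected molar pSmad1/5 peaks, 1.37 of the molar Smad4 peaks, 0.773 of the limb pSmad1/5 peaks and 0.842 of the limb Smad4 peaks. All 557 long genes had 0.721, 0.9995, 0.594 and 0.529 when summed gene by gene, which counts a peak in 2 overlapping long genes once for each. Synaptic adhesion genes (48) had 0.599, 0.751, 0.296 and 0.321, and genes known as fragile sites (26, many shared with the adhesion list) had 0.523, 0.705, 0.274 and 0.280. Axon guidance genes (17) had 0.503, 0.773, 0.390 and 0.324, and genes of the matrix and the dystrophin complex (18) had 0.637, 0.880, 0.358 and 0.292. Cadherins and catenins (14) had 0.622, 0.737, 0.551 and 0.486, and channels and receptors (46) had 0.756, 1.03, 0.555 and 0.515, close to all long genes. Genes of intracellular signalling (42) stood above all long genes in molar Smad4, at 1.40, with 0.805, 0.699 and 0.524 in molar pSmad1/5, limb pSmad1/5 and limb Smad4. The 6 RNA-binding genes had 0.821, 1.44, 1.205 and 1.03 pooled, with medians of 0.734, 1.31, 0.786 and 0.482.

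Called genes are given beside the shares over all tested long genes, which were 8.7% dense and 54.3% sparse in molar pSmad1/5, 25.7% and 36.2% in molar Smad4, 6.41% and 75.6% in limb pSmad1/5, and 5.69% and 76.3% in limb Smad4. Of the transcription regulators with enough expected peaks, 5 of 22 were dense and 9 sparse in molar pSmad1/5, 12 of 30 dense and 5 sparse in molar Smad4, none of 15 dense and 10 sparse in limb pSmad1/5, and 1 of 23 dense and 12 sparse in limb Smad4. Of the synaptic adhesion genes, 3 of 43 were dense and 29 sparse in molar pSmad1/5, 4 of 36 dense and 18 sparse in molar Smad4, 1 of 35 dense and 28 sparse in limb pSmad1/5, and 1 of 39 dense and 32 sparse in limb Smad4. In limb the synaptic adhesion genes were near the shares over all tested long genes. The transcription regulators were sparse less often in limb Smad4, at 12 of 23 against 76.3%. The median ratio over tested transcription regulators was 0.832, 1.32, 0.443 and 0.642 in the order molar pSmad1/5, molar Smad4, limb pSmad1/5 and limb Smad4, beside 0.627, 0.939, 0.30 and 0.283 over all tested long genes.

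Long genes of developmental signalling were not set apart from all long genes by their pooled density. The 21 genes had 0.639 of the expected molar pSmad1/5 peaks, 1.09 of the molar Smad4 peaks, 0.457 of the limb pSmad1/5 peaks and 0.455 of the limb Smad4 peaks. All long genes had 0.721, 0.9995, 0.594 and 0.529 in the same order, and each 95% interval of the group included that value. In molar Smad4, 8 of the 19 tested were dense and 5 sparse, while in limb none was dense and 9 of 10 (pSmad1/5) and 10 of 12 (Smad4) were sparse, near the 75.6% and 76.3% over all tested long genes. The molar Smad4 shares over all tested long genes were 25.7% dense and 36.2% sparse. Bmpr1b, a type I BMP receptor of digit cartilage, held 6 molar pSmad1/5, 3 molar Smad4, 1 limb pSmad1/5 and 2 limb Smad4 peaks, all under the expected 7.77, 5.10, 1.99 and 2.39. Ltbp1, which stores latent TGF-beta in the matrix, held 1, 7, 1 and 3. Nedd4l, a ubiquitin ligase that acts on activated Smads, held 1, 12, 7 and 8, and Gpc3, a glypican that modulates growth factor signals, held 6, 16, 2 and 4.

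The receptor kinases of this list differed among themselves. Erbb4 held 4, 6, 1 and 1 peaks in 1077 kb, in the order molar pSmad1/5, molar Smad4, limb pSmad1/5 and limb Smad4, and Alk held 4, 21, 2 and 5. Ntrk2, a neurotrophin receptor, held 8, 14, 8 and 4, and Ror1, a Wnt receptor, held 1, 12, 0 and 2. Among ligands, the neuregulins Nrg1 and Nrg3 held 5, 3, 1 and 3 and 8, 13, 0 and 0 peaks in over 1000 kb each. The glypicans Gpc5 and Gpc6 held 21, 13, 1 and 0 and 18, 17, 5 and 4. Every one of these genes except Ntrk2 had its highest ratio to expectation in a molar list. Over all long genes the ratio was also higher in molar, at 0.721 (pSmad1/5) and 1.003 (Smad4). In limb it was 0.593 (pSmad1/5) and 0.528 (Smad4). The share of all long genes with their highest ratio in a molar list was not counted.

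Regulators known from limb and tooth had higher pooled ratios than all long genes in each list. The 21 genes had 1.09 of the expected molar pSmad1/5 peaks, 1.35 of the molar Smad4 peaks, 0.821 of the limb pSmad1/5 peaks and 0.829 of the limb Smad4 peaks. Of the tested genes, 2 of 10 were dense and 3 sparse in molar pSmad1/5, 5 of 15 dense and 3 sparse in molar Smad4, 0 of 9 dense and 7 sparse in limb pSmad1/5, and 0 of 14 dense and 7 sparse in limb Smad4. Over all tested long genes the dense shares were 8.7, 25.7, 6.41 and 5.69% and the sparse shares 54.3, 36.2, 75.6 and 76.3% in the same order. The limb pSmad1/5 counts were near those shares. The median tested gene had 0.362 of the expected limb pSmad1/5 peaks and 0.722 of the limb Smad4 peaks. Runx2 held 5, 7, 12 and 5 peaks in the order molar pSmad1/5, molar Smad4, limb pSmad1/5 and limb Smad4, and its limb pSmad1/5 count was 2.61 times the expected 4.59 (95% interval 1.35 to 4.56). One of these 12 is the peak on the Supt3 start printed above. The overlapping gene Supt3 itself held 0, 5, 0 and 0 peaks more than 1 kb from its ends. Foxp1, a forkhead transcription regulator, held 22, 20, 1 and 9. Sox5 and Sox6, which drive cartilage differentiation, held 26, 19, 4 and 9 and 4, 11, 0 and 3. Mecom held 24, 13, 2 and 3, Cux1 held 2, 1, 10 and 7, and Dach1, a regulator of limb and eye development, held 1, 2, 0 and 1.

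A list of long genes, drawn up for hosts of regulatory elements of a neighbour, was added after earlier results. It also holds Zfp423 and Eda, for which no such neighbour is named here. Its pooled values therefore do not describe such hosts alone. The 6 genes together had 0.965 of the expected molar pSmad1/5 peaks, 1.30 of the molar Smad4 peaks, 0.993 of the limb pSmad1/5 peaks and 0.956 of the limb Smad4 peaks. Their median ratios were 0.948, 1.33, 0.479 and 0.598 in the same order. Zfp423, described above, is the one with a ratio of at least 1.5 in all 4 lists. It held 15 of the group's 25 limb pSmad1/5 peaks and 16 of its 27 limb Smad4 peaks. Fmn1, which holds limb enhancers of the BMP antagonist Gremlin1, had 2 molar pSmad1/5, 1 molar Smad4, 2 limb pSmad1/5 and 1 limb Smad4 peaks, under the expected 3.39, 1.51, 5.10 and 6.24. Dync1i1, with enhancers of Dlx5 and Dlx6, had 7, 7, 1 and 1, and Fto, with elements of the Irx genes, had 4, 2, 5 and 6. Eda, the ectodysplasin ligand of tooth and hair development, had 3, 10, 2 and 3, where 3.56, 9.35, 3.53 and 3.28 were expected. Among these last 4 genes, no count except limb Smad4 in Fmn1 had an interval that excludes the expectation. Supt3, whose counts are given above, completes the list.

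The lists were then set against each other by tissue. Each gene's ratio to expectation was compared between lists where the 2 lists together held at least 10 peaks. For pSmad1/5, the molar ratio was at least 2 times the limb ratio in 39 of 211 genes (18.5%, against 10.9% of windows) and at most 1/2 of it in 28 (13.3%, against 11.9% of windows). For Smad4, the molar ratio was at least 2 times the limb ratio in 121 of 252 genes (48%, against 18.8% of windows) and at most 1/2 of it in 11 (4.37%, against 17.9% of windows). Expected from the sequence outside genes instead, the pSmad1/5 counts were 31 and 48 and the Smad4 counts 67 and 36. The direction for pSmad1/5 and the size of the Smad4 contrast thus depend on the baseline. The median gene had a molar over limb quotient of 0.998 for pSmad1/5 and 1.87 for Smad4.

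The largest molar over limb quotients for pSmad1/5 were those of Nrxn3, a neurexin, with 27 molar and 1 limb peak (12.5, 95% interval 2.06 to 512), Lsamp with 37 and 1 (12.2, 2.06 to 495) and Foxp1 with 22 and 1 (9.44, 1.53 to 389). The smallest were those of Mad1l1 with 2 and 15 (0.185, 0.0206 to 0.796), Slit3, a guidance ligand, with 2 and 12 (0.201, 0.0218 to 0.901) and Msi2, an RNA-binding regulator of progenitor cells, with 2 and 10 (0.241, 0.0257 to 1.13). For Smad4 the largest were Adamtsl1, a matrix protein, with 19 molar and 1 limb peak (15.1, 2.40 to 627), the recombination gene Rad51b with 19 and 1 (13.4, 2.13 to 557) and the F-box gene Fbxl7 with 11 and 1 (13.2, 1.92 to 569). The smallest were the zinc finger gene Zbtb7c with 5 and 21 (0.136, 0.0400 to 0.370), Rbfox3 with 2 and 39 (0.245, 0.0286 to 0.945) and the zinc finger gene Hivep3 with 11 and 31 (0.282, 0.128 to 0.576). The wide intervals reflect single peaks in one of the 2 lists, and the genes were ranked by the same quotients, so these intervals describe chosen extremes. Rbfox3 lies on chromosome 11, where the lowest molar Smad4 score was 4 and 1.97 peaks were expected. Foxp1 and Lsamp lie on chromosomes 6 and 16, where the lowest pSmad1/5 score, rounded down, was 2 in molar and 3 in limb. Mad1l1 and Slit3 lie on chromosomes 5 and 11, where it was 3 in both tissues. The part that the lowest score plays in these quotients was not tested.

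**Figure D4:**
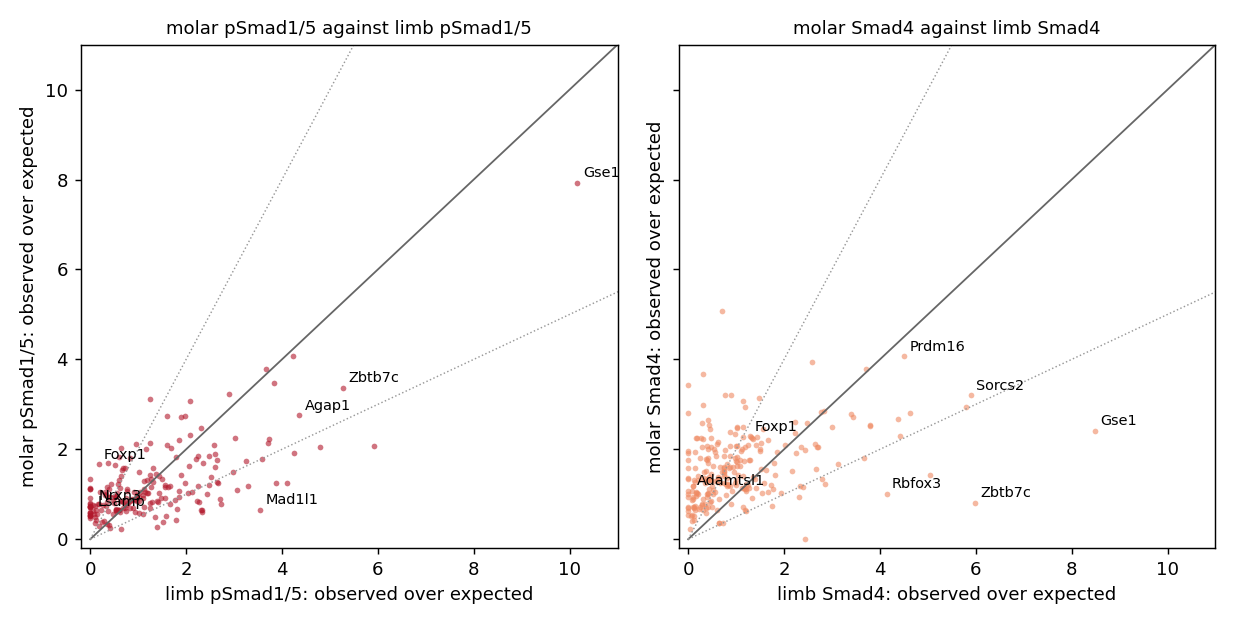
Observed over expected peaks per long gene in molar (vertical axis) against limb (horizontal axis), for pSmad1/5 (left) and Smad4 (right), for genes with at least 10 peaks in both lists together; the solid line marks equal ratios and the dotted lines a 2-fold difference. Most Smad4 genes lie above the solid line (median quotient 1.87), and Gse1, Rbfox3 and Zbtb7c lie under it.

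The antibodies were compared in the same way within each tissue. In molar, the pSmad1/5 ratio was at least 2 times the Smad4 ratio in 19 of 295 genes (6.44%, against 13.4% of windows) and at most 1/2 of it in 79 (26.8%, against 14.5% of windows). Expected from the sequence outside genes these counts were 33 and 55. In limb the counts were 16 of 131 (12.2%, against 6.83% of windows) and 9 (6.87%, against 7.16% of windows). Molar genes high in pSmad1/5 included Lrrtm4, a synaptic adhesion gene, with 9 pSmad1/5 and 1 Smad4 peak (quotient 5.98, 95% interval 0.828 to 262) and Zbtb7c with 8 and 5 (4.15, 1.198 to 16.1). Those highest in Smad4 were Msi2 with 2 and 9 (0.0849, 0.00893 to 0.410), the postsynaptic scaffold gene Dlgap1 with 1 and 15 (0.0935, 0.00222 to 0.608) and the protocadherin gene Pcdh15 with 1 and 20 (0.112, 0.00271 to 0.701). On chromosome 11, which holds Msi2, the lowest score, rounded down, was 3 for molar pSmad1/5 and 4 for molar Smad4. On chromosome 6, which holds Lrrtm4, it was 2 and 3. The part that the lowest score plays in these quotients was not tested either. In limb the largest quotients were those of the channel gene Trpm3 with 9 and 2 (5.64, 1.17 to 53.6), the formin Fhod3 with 8 and 2 (5.29, 1.06 to 51.1) and Atrnl1 with 11 and 3 (4.59, 1.21 to 25.6). The smallest were those of Foxp1 with 1 and 9 (0.138, 0.00315 to 0.996), the ubiquitin ligase gene Sh3rf3 with 2 and 8 (0.325, 0.0336 to 1.63) and Prdm16 with 3 and 22 (0.355, 0.0679 to 1.18).

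Inside the long genes, peaks were densest near the ends. Between 1 and 5 kb from the nearest end, the ratio of observed to expected peaks was 1.83 (pSmad1/5) and 1.64 (Smad4) in molar and 2.03 (pSmad1/5) and 1.97 (Smad4) in limb. More than 100 kb from both ends it was 0.662, 0.929, 0.476 and 0.393. That central part still held 2007 of the 3329 molar pSmad1/5 peaks, 2513 of the 4156 molar Smad4 peaks, 940 of the 1793 limb pSmad1/5 peaks and 999 of the 2061 limb Smad4 peaks. For the 425 long genes with a known strand, the first 10% of the gene's length held 11.8% and the last 10% held 11.3% of molar pSmad1/5 peaks. For molar Smad4 these shares were 9.26% and 12.7%, for limb pSmad1/5 12.6% and 14.6%, and for limb Smad4 12.2% and 15.4%, where an even spread would give 10% each.

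**Figure D5:**
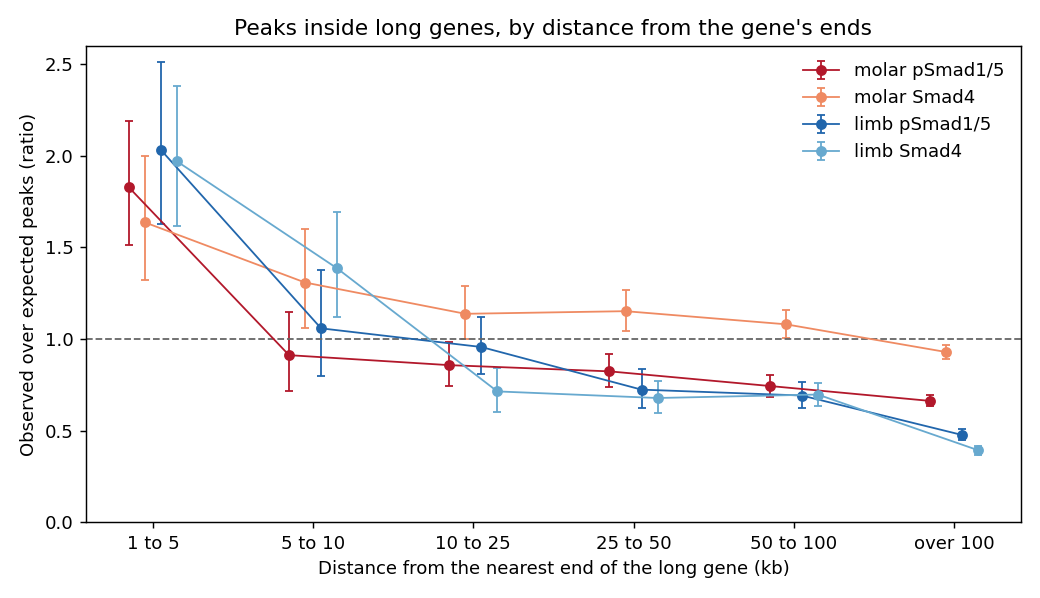
Observed over expected peaks inside long genes (vertical axis) by distance from the nearest end of the gene (horizontal axis, kb), with 95% Poisson intervals and 1 library per line. All 4 lists lie above 1 between 1 and 5 kb, and over 100 kb from the ends they lie between 0.393 and 0.929.

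Sites inside long genes coincided between limb pSmad1/5 and limb Smad4, and between molar pSmad1/5 and each limb list, less often than all other sites, but not less often than sites outside genes. In limb, 49 pSmad1/5 peaks inside long genes overlapped a Smad4 peak by at least 1 bp, which is 2.73% of 1793 (95% interval 2.03 to 3.60%), against 5.02% of the pSmad1/5 peaks elsewhere (4.74 to 5.32%). The same 49 pairs were 2.38% of the limb Smad4 peaks inside long genes, against 3.94% elsewhere. Molar pSmad1/5 overlapped limb pSmad1/5 at 18 peaks, 0.541% of those inside long genes, against 1.17% elsewhere. From the limb side these were 0.948% and 1.76%. Molar pSmad1/5 overlapped limb Smad4 at 27 peaks, 0.811% inside long genes and 2.03% elsewhere, and from the limb side 1.31% and 2.36%. Sequence outside genes gave 2.65% for limb pSmad1/5 with limb Smad4, 0.424% for molar with limb pSmad1/5 and 0.533% for molar pSmad1/5 with limb Smad4. With a score of at least 4 in both lists, the limb pair coincided at 3.91% of the pSmad1/5 peaks inside long genes, against 4.10% elsewhere. The 3.91% are 11 of 281 peaks, too few to tell whether the difference in limb holds among high-scoring peaks.

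Overlaps that involve molar Smad4 were few. It shared 12 sites inside long genes with molar pSmad1/5 (0.289% of its peaks there, against 0.651% elsewhere, and 0.360% of the molar pSmad1/5 peaks, against 0.613% elsewhere). It shared 13 with limb Smad4 (0.313% against 0.460%, and 0.631% against 0.509% from the limb side) and 8 with limb pSmad1/5 (0.192% against 0.293%, and 0.446% against 0.412%). The intervals of the 2 shares overlapped for these last 2 pairs, and for molar pSmad1/5 with molar Smad4 from the pSmad1/5 side.

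After Gse1, where 12 of 119 peaks overlapped another list, Zfp423 had 10 of 41. Camta1 had 6 of 107, Cdh23 6 of 69, Prdm16 6 of 58 and Snx29 6 of 50. Over all long genes 249 of 11339 peaks did so. An overlap counts once from each list, so these are peaks and not separate sites. A peak of one list overlapped peaks of 2 others at 2 places. In Sorcs2, at chromosome 5 from 36117169 to 36117290, molar Smad4, limb pSmad1/5 and limb Smad4 met. In Ldlrad4, which encodes a membrane inhibitor of TGF-beta signalling, a limb pSmad1/5 peak overlapped a molar pSmad1/5 peak and a limb Smad4 peak. The latter peaks did not overlap each other.

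Peaks inside long genes scored a little lower than the others of their list, except in molar Smad4. There the difference in medians had an interval that includes 0 (-0.0327 to 0.00522). In molar the median score was 2.68 against 3.01 (pSmad1/5) and 3.37 against 3.38 (Smad4). In limb it was 3.40 against 3.44 (pSmad1/5) and 3.44 against 3.54 (Smad4). Within chromosomes the molar pSmad1/5 difference was -0.0801. The members' median was lower on 16, 15, 17 and 19 of 20 chromosomes in that order. Median widths were 64 against 63 bp, 54 against 55 bp, 54 against 56 bp and 55 against 58 bp.

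The highest-scoring sites inside long genes lay in genes of both kinds, dense and not. In molar pSmad1/5 they lay in Glis3, a Krüppel-like zinc finger gene, with a score of 7.63 as the number 10 peak of that list, in Rgs6, a regulator of G-protein signalling (7.31), and in Tiam1 (6.72). Glis3 held only 2 molar pSmad1/5 peaks in all, so its site was isolated, whereas Tiam1 was dense. In molar Smad4 they lay in Sorcs2 (5.89), the glutamate receptor gene Grik1 (5.75) and Fhod3 (5.73), and in limb pSmad1/5 in Btbd9 (6.54), the kinase gene Prkca (6.35) and Rbfox1 (6.25). In limb Smad4 they lay in Maml3 (7.01), in Dab1, an adaptor of reelin signalling (6.93), and in Gse1 (6.78).

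Neighbouring peaks of one list inside one long gene lay a median of 35.4 kb apart in molar pSmad1/5, 28.7 kb in molar Smad4, 40.5 kb in limb pSmad1/5 and 31.4 kb in limb Smad4. Between 20.4% (limb pSmad1/5) and 26.1% (limb Smad4) of neighbours lay within 10 kb. Besides Gse1 and Camta1, the tightest groups were 10 molar Smad4 summits in 50 kb of Prdm16, 10 limb Smad4 summits in Rbfox3 and 9 molar pSmad1/5 summits in Dis3l2, where between 0.963 and 1.32 were expected.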

How the data were processed

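Chromatin immunoprecipitation followed by sequencing was done on 6 libraries, of which the 4 peak lists were used. Per the labels, the authors called peaks with the transcription factor mode of BCP and deposited 1 list per library. It gives the position, width and summit of each peak, a score and a p-value. The score, deposited as an enrichment per peak, only ranked or filtered peaks here. The p-value, as deposited by the authors, entered no test. Per the submitters' processing notes the build is mm10, and bcl2fastq, Bowtie2, SAMtools, bedtools and deepTools were among the tools. Read counts are not in the lists, so depth is unknown. The treatment of inputs, duplicates and reads with several positions is not stated in the labels.

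RefSeq on GRCm38.p6, with the primary coordinates of mm10, gave gene positions and promoter sequences. Chromosomes ran from the first to the last summit of any list, and assembly gaps were kept. Peaks on Y and M (145) cannot be members. Expected numbers were interior length times the density outside long genes on the same chromosome, which includes peaks near gene ends. Intervals are exact Poisson or exact binomial (Clopper-Pearson) 95% intervals, conditional on the total for quotients of 2 lists. Overlap meant at least 1 bp. Of the 557 long genes, 95 overlap another protein-coding gene, and a peak in 2 long genes counts once in the totals and once in each gene. The planned count of motifs in the peaks was not run, since no genome sequence was used here, and only RefSeq promoter windows were searched.

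Named genes are the 5 longest, per list the 3 highest and 2 lowest ratios with at least 5 expected peaks, per comparison of lists the 3 highest and 3 lowest quotients, the 3 highest-scoring peaks per list, hosts of sites in 3 lists, and examples from the lists of signalling genes and of limb and tooth regulators. Any other gene was named with its values already known. One gene that the rule selects is not reported here. The members, the gene lists and the tests were chosen with earlier results of these data known. Computations ran in Python 3.11.15 with pandas 2.3.3, numpy 2.4.6 and scipy 1.17.1, and figures were drawn with matplotlib 3.10.9.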

Additional observations from a re-analysis of the deposited data

How the results depend on the processing

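No paired analysis was possible because each group is 1 library, and for the same reason no replicate could be left out. Ratios to expectation are given in the order molar pSmad1/5, molar Smad4, limb pSmad1/5 and limb Smad4. Expected from sequence outside protein-coding genes, the ratio turned to 1.08, 1.06 and 1.06 in molar pSmad1/5, limb pSmad1/5 and limb Smad4, and molar Smad4 was 1.27. Expected from interiors of shorter genes it was 0.533, 0.698, 0.377 and 0.332. When scores had to reach 4 it was 0.518, 0.876, 0.445 and 0.385, with genes over 200 kb 0.785, 1.10, 0.705 and 0.649, and with genes over 500 kb 0.656, 0.867, 0.396 and 0.353. Over 10 kb from the ends it was 0.564 for limb pSmad1/5 and 0.492 for limb Smad4. Without the 10 densest genes of the list, a setting chosen after seeing the data, it was 0.697 in molar pSmad1/5 and 0.546 (pSmad1/5) and 0.464 (Smad4) in limb. On autosomes only, and over 1 kb from every gene end, each ratio stayed within its counting interval.

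Dense genes numbered 28, 95, 15 and 19. Expected from shorter genes they were 11 and 44 in the molar lists, and from outside genes 48 in molar pSmad1/5, 5 in limb pSmad1/5 and 9 in limb Smad4. Fewer limb genes reach 5 expected peaks with that baseline. Sparse genes numbered 175, 134, 177 and 255, against 302, 202, 332 and 406 from shorter genes and 64, 84, 46 and 69 from outside genes. With a score of at least 4, few genes still had 5 expected peaks. Dense genes were then 1 in molar Smad4 and 0 in each limb list, sparse genes 6 in molar Smad4, 2 in limb pSmad1/5 and 22 in limb Smad4, and no molar pSmad1/5 gene could be tested. Cacna1d in molar pSmad1/5 and Mid1 in molar Smad4 then had a ratio of 0.

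For molar against limb, the counts with a score of at least 4 were 0 and 1 for pSmad1/5 and 6 and 5 for Smad4, and from outside genes 31 and 48 for pSmad1/5 and 67 and 36 for Smad4. For pSmad1/5 against Smad4 they were 0 and 4 in molar and 1 and 1 in limb with that score, and 33 and 55 in molar from outside genes. The share of peaks inside long genes was 5.26, 6.35, 3.05 and 2.72% for genes over 500 kb, and 6.76, 10.96, 5.89 and 5.17% with a score of at least 4. Overlap of at least 50% of both peaks gave shares of 0.150% for molar with limb pSmad1/5, 0.150% for molar pSmad1/5 with molar Smad4, 1.12% for limb pSmad1/5 with limb Smad4, 0.3004% for molar pSmad1/5 with limb Smad4 and 0% for molar Smad4 with limb pSmad1/5. With a score of at least 4 these were 0, 0, 3.91, 0 and 0%, and 0.127% for molar with limb Smad4. Peaks elsewhere then had 0.850, 0.304, 4.10, 1.43 and 0.109% in that order, and 0.0935%. The limb pair then rested on 11 shared peaks inside long genes and the Smad4 pair on 1, too few to tell whether the shares differ. The median score difference of molar pSmad1/5 was -0.330 pooled and -0.0801 within chromosomes. Causes other than fewer genes tested were not tested. Read depth is unknown and limits every count.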
